A study of Oryza sativa with 4 samples.

Results

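First exon peaks are the stretches of open chromatin in rice leaves that the deposited peak annotation places in exon 1 of a gene. They were taken as every row annotated as an exon with "exon 1 of" in the entry, which gave 3349 of 46114 listed peaks (7.26%), at 3160 genes. Accessibility was profiled by ATAC-seq, in which Tn5 transposase inserts sequencing adapters where DNA is not packed away, in leaf blades of Oryza sativa seedlings. The series has 2 groups with 2 libraries each, the Oshmgb1 mutant and WT, both kept for 28 days under the regime the labels name HP. The sources used here do not give the allele, the number of plants per library or a separate origin of the libraries. The p-values thus cover only how far these libraries differ, which may be technical.

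OsHMGB1 belongs to the high mobility group box family, abundant non-histone chromatin proteins that bind and bend DNA. The first exon of a plant gene usually holds the 5′ UTR and the first part of the coding sequence, and in genes without introns it is the whole transcribed region. Open chromatin in plants lies mostly just before the transcription start, where it is bound by the transcription machinery, and the first nucleosome after the start often limits how far it reaches into the gene. A peak in exon 1 can therefore be the downstream flank of promoter accessibility or a separate open stretch in the gene body.

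Reads in listed peaks numbered 7228483 and 8183354 in the WT libraries and 10400677 and 8516630 in the Oshmgb1 libraries. The median first exon peak held 101 reads in its lowest library and 155 in its highest. Over the 3349 first exon peaks, log2 read counts scaled to library size (CPM, TMM-scaled) correlated at 0.940 between the WT libraries, at 0.956 between the Oshmgb1 libraries and at 0.911 to 0.936 between genotypes. These are correlations across peaks, which are not independent replicates. OsHMGB1 itself (LOC_Os06g51220) had no first exon peak. Its promoter peak had a log2 fold change of -0.19 and its exon 7 peak one of -0.09, with edgeR adjusted p of 0.396 and 0.843, and neither tests the genotype label because the allele is not given. Of the markers listed for leaf and other cell types, 0 had a first exon peak and 0 peaks of any class were called. Summed CPM over the 9 peaks at 4 of 4 mesophyll marker genes was 593 and 588 in WT and 570 and 572 in Oshmgb1, while the 3 peaks at 2 root markers summed to 41.1 to 48.4 CPM in the 4 libraries and the phloem marker had no listed peak. In bulk tissue, a change in the number of cells of a type and a change in accessibility per cell cannot be told apart.

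The position of the peaks within their genes differed between gene models with 1 exon and those with several. The peak centre lay 1 to 7863 bp downstream of the gene start, with a median of 343 bp and quartiles of 142 and 933 bp. In 3338 of 3349 cases the listed distance was that of the centre to within 1 bp. Whether the annotation class was also assigned by the centre was not tested. A total of 1726 first exon peaks (51.5%) reached back over the gene start itself, against 2.90% of 6139 later exon peaks, 86.9% of 3216 5′ UTR peaks and 66.5% of 11867 promoter peaks within 1 kb. The 1410 peaks in single-exon gene models had a median distance of 561 bp and covered the start in 39.0% of cases. The 1939 peaks in models of several exons had a median distance of 250 bp and covered it in 60.6%. In models of 6 or more exons the distance was 208 bp and the share 71.0%. Gene models with many exons thus had mainly peaks that straddle the start, and single-exon models more peaks in the gene body. The annotation lists 5′ UTR peaks as a class of their own.

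**Figure D1:**
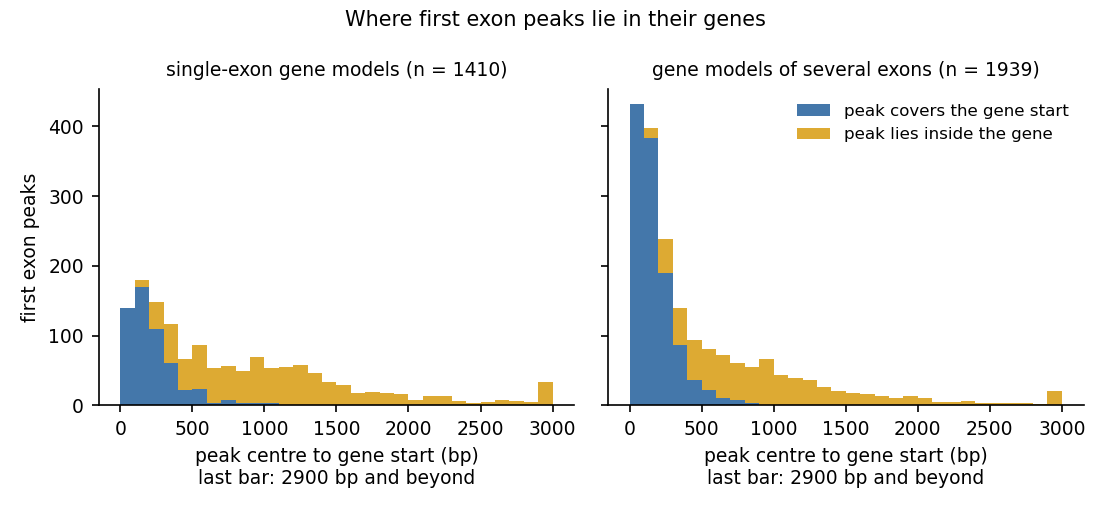
Number of first exon peaks by distance from peak centre to gene start, in bins of 100 bp, for single-exon gene models (n = 1410) and models of several exons (n = 1939). Blue bars are peaks that cover the gene start. Yellow bars, labelled as inside the gene, are peaks clear of the start, and some of these run past the gene end. They form the long tail on the right of both panels.

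First exon peaks were wider than those of neighbouring classes. Their width ran from 209 to 3646 bp with a median of 643 bp, against 583 bp for later exon peaks, 567 bp for 5′ UTR peaks and 541 bp for promoter peaks. Peaks that covered the start had a median width of 724 bp, and those clear of it 551 bp. Most genes had only 1 such peak. A total of 170 genes had at least 2 and the highest number in a gene was 4. For 1420 of the 3160 genes (44.9%) no other peak of any class was listed, while 580 had a promoter peak within 1 kb, 391 an intron peak, 316 a later exon peak and 119 a 5′ UTR peak. The deposited table gave no symbol for the gene of 46.3% of the peaks.

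Accessibility per kb of peak was lower in first exons than in 5′ UTRs and promoters in each of the 4 libraries. The level (CPM per kb of peak, mean of 4 libraries) had a median of 22.4 and quartiles of 19.3 and 27.0 over first exon peaks, and a median of 25.6 over all listed peaks. Within a library, the median log2(CPM per kb) of first exon peaks minus that of promoter peaks was -0.51 and -0.43 in WT and -0.38 and -0.40 in Oshmgb1 (mean -0.43 ± 0.06, SD, n = 4). Against 5′ UTR peaks the difference was -0.40 ± 0.06 (SD, n = 4). Against later exon peaks it was -0.06 ± 0.03 (SD, n = 4). Each difference had the same sign in 4 of 4 libraries, and the exact two-sided sign-flip test gave p = 0.125, the smallest that 4 libraries allow. The difference from later exons turned to 0.09 when levels were taken per peak and not per kb, as first exon peaks were wider.

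**Figure D2:**
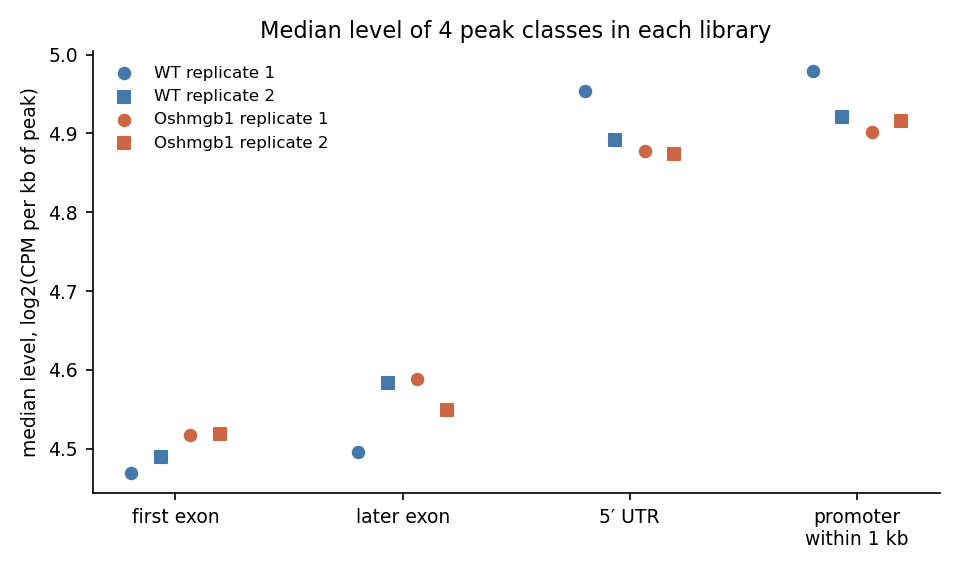
Median level of 4 peak classes as log2(CPM per kb of peak) in each library, WT in blue and Oshmgb1 in orange, with a circle for replicate 1 and a square for replicate 2. First exon and later exon medians lie below those of 5′ UTR and promoter peaks in all 4 libraries, and the axis does not start at 0.

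Levels of peaks at the same gene went together, and their genotype differences did so less. In the 152 genes with exactly 2 first exon peaks, the levels of the peak nearer to and the peak farther from the start had a Spearman correlation of 0.748 across genes, and their log2 fold changes one of 0.238. In the 534 genes with 1 first exon peak and 1 promoter peak within 1 kb, the correlations were 0.628 for the level and 0.029 for the log2 fold change. The promoter peak had the higher level in 403 of them (75.5%). In the 265 genes with 1 first exon peak and 1 later exon peak they were 0.645 and 0.039. The points share the same 4 libraries and adjacent DNA, and genes are not replicates. Over first exon peaks, the SE of the log2 fold change had a median of 0.20, and the log2 fold change itself quartiles of -0.13 and 0.21. Errors of this size lower a correlation of log2 fold changes, and by how much was not tested.

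The highest levels were at gene models described with mitochondrial functions. The peak of ATPA (LOC_Os09g08910, ATP synthase F0 subunit 1 by its description, chromosome 9, 4729165 to 4729443) measured 570 and 533 CPM in WT and 506 and 511 CPM in Oshmgb1, a mean level of 1899 CPM per kb. The peaks of cycZ (LOC_Os12g34012) and YMF16 (LOC_Os12g33962, a transport membrane protein), both described from mitochondrial genomes of other grasses and both on chromosome 12, had levels of 1657 and 1515 CPM per kb. ATP6 (LOC_Os01g58010, a subunit of mitochondrial ATP synthase) had 664. LOC_Os04g22130 (uncharacterized, 766) and LOC_Os06g16380 (hypothetical, 328) completed the 6 highest. RPL2 (LOC_Os12g23570, 300 CPM per kb, described as a mitochondrial open reading frame) and COX1 (LOC_Os12g33946, cytochrome c oxidase subunit 1, 248) were added after their values were seen, because the next highest first exon peak stood at 95.6 CPM per kb. Peaks of any class above 200 CPM per kb numbered 144, and the highest listed peak of any class had 2021.

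Rice chromosomes carry copies of organelle DNA, and short reads from an organelle can align to such copies. The sources used here do not say whether organelle reads were removed, so the levels of these 8 peaks are uncertain, and the part of organelle reads in them was not tested. Their log2 fold changes were all negative, with a median of -0.11, and 0 of 8 were called by edgeR or DESeq2. Together they held 0.463% and 0.425% of peak reads in the WT libraries and 0.416% and 0.421% in the Oshmgb1 libraries. With WT replicate 2 left out, ATPA, cycZ, YMF16, LOC_Os04g22130 and COX1 passed the threshold (log2 fold change -0.16, -0.17, -0.16, -0.14 and -0.37), and they did so in no other leave-one-out fit.

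The Oshmgb1 and WT libraries were compared to find where chromatin was more or less accessible in the mutant. Read counts of all 46114 peaks were fitted together with edgeR, and a peak was called at a Benjamini-Hochberg adjusted p under 0.05 over all peaks. Of the 3349 first exon peaks, 16 were called (0.478%), against 0.403% of all listed peaks. Higher accessibility in Oshmgb1 was called at 13 of them (0.388%, against 0.321% of all peaks) and lower accessibility at 3 (0.0896%, against 0.0824%). The share called was close to the background in both directions. The genes with higher first exon accessibility included YUC10 (an auxin synthesis enzyme), an extensin, a dirigent protein, the receptor kinase gene BAM1 and the transporter gene ABCG51. Those with lower accessibility included BBE1. Of the 16, 4 were also called by DESeq2, where the background was 0.0976%, and the same number passed the FDR in the authors' deposited table, where it was 0.102%. All of these 4 were higher in Oshmgb1. Leaving out WT replicate 2 raised the number of calls and leaving out Oshmgb1 replicate 2 lowered it, in first exons and over all listed peaks. Higher peaks made up 81.2% of the calls in the main fit. Their share was 65.0% when counts were scaled to the library totals behind the deposited RPKM, which called 13 higher and 7 lower. With those totals, 0.479% of all listed peaks were called.

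The lowest adjusted p was at LOC_Os05g45779, a gene model of 2 exons with no description. Its peak (chromosome 5, 26513109 to 26514045, reaching from 293 bp before the gene start into the gene) measured 14.3 and 13.9 CPM in WT and 42.4 and 30.4 CPM in Oshmgb1. Both mutant libraries lay far above both WT libraries (log2 fold change 1.37 ± 0.17 SE, edgeR adjusted p 4.12e-09). A peak in the first intron of the same gene, at 26514225 to 26514961, had 13.2 ± 0.836 CPM in the WT and 17.9 ± 0.0746 CPM in the mutant libraries (SD, n = 2) and missed the threshold (log2 fold change 0.43, edgeR adjusted p 0.340).

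YUC10 (LOC_Os02g17230) is described as an indole-3-pyruvate monooxygenase of the YUCCA family, flavin enzymes that make the auxin indole-3-acetic acid. Its first exon peak (chromosome 2, 9877494 to 9878441) measured 8.42 and 8.06 CPM in WT and 18.3 and 20.8 CPM in Oshmgb1. The rise had a log2 fold change of 1.24 ± 0.21 (SE), a 95% interval of 0.82 to 1.66 and an edgeR adjusted p of 6.64e-05. The peak starts 111 bp before the gene start and is the only listed peak of this gene. YUC10 is not in the auxin list, whose members were found by words in their descriptions.

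LOC_Os05g13900, described as an extensin, a hydroxyproline-rich glycoprotein of the cell wall, had a peak inside its single exon, centred 735 bp from the start (chromosome 5, 7721921 to 7722907). It measured 12.1 and 8.06 CPM in WT and 21.4 and 23.7 CPM in Oshmgb1, a log2 fold change of 1.17 ± 0.20 (SE) with an edgeR adjusted p of 8.01e-05. A promoter peak of the gene, centred at -1827 bp from the start, was not called (log2 fold change -0.10, edgeR adjusted p 0.912). The difference between the peaks of the gene was not tested.

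TY3B-I (LOC_Os12g08040) carries a symbol of the Ty3 retrotransposon polyprotein, and its gene model is a single exon of 465 bp. Its peak (chromosome 12, 4089332 to 4090267) extends past both ends of the model and measured 13.6 and 12.2 CPM in WT and 28.1 and 27.8 CPM in Oshmgb1. Accessibility rose by 1.11 ± 0.18 (SE) on the log2 scale (edgeR adjusted p 1.96e-05). The adjoining downstream peak, at 4088075 to 4089044, rose likewise from 12.9 ± 1.44 to 27.0 ± 0.0268 CPM (SD, n = 2), a log2 fold change of 1.07 ± 0.18 (SE) with an edgeR adjusted p of 6.07e-05. Retrotransposon copies resemble each other, and the treatment of reads with several matches is not stated, so the values of this gene are uncertain. These 4 peaks, at LOC_Os05g45779, YUC10, the extensin gene and TY3B-I, were the ones that both edgeR and DESeq2 called, that pass the FDR of the authors' deposited table, and that stayed called in all 4 leave-one-out fits.

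**Figure D3:**
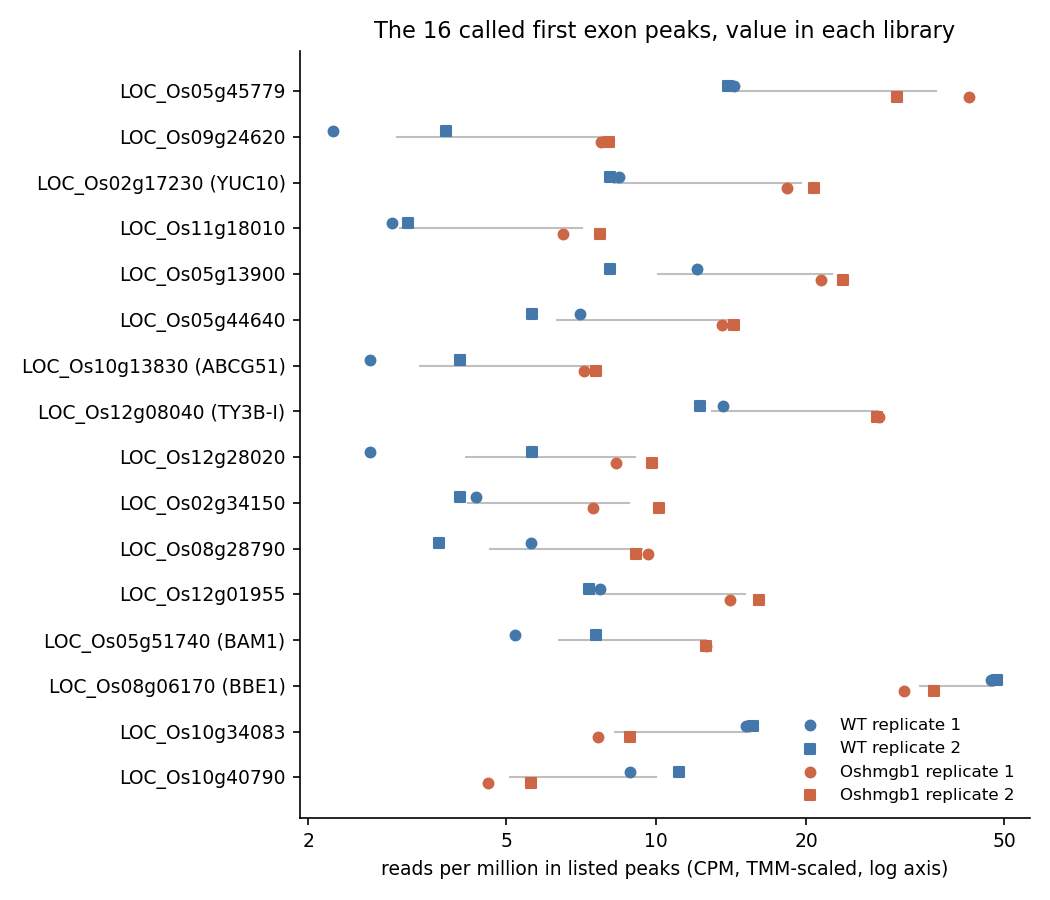
Accessibility of the 16 called first exon peaks in each library, in CPM on a log axis, ordered by log2 fold change. Blue marks are WT and orange marks Oshmgb1, circles are replicate 1 and squares replicate 2, and grey lines join the genotype means. The genotypes do not overlap at any of the 16.

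Among the other 9 peaks that rose, several were small peaks with few reads. The peak of LOC_Os09g24620, an uncharacterized protein, held 16 and 31 reads in WT and 81 and 69 in Oshmgb1 (2.24, 3.79, 7.73 and 8.05 CPM, log2 fold change 1.36, edgeR adjusted p 0.00134). LOC_Os11g18010, a hypothetical protein, held 21 and 26 against 68 and 66 reads (1.20, edgeR adjusted p 0.0111). LOC_Os12g28020, an expressed protein, held 19 and 46 against 87 and 84 reads (1.09, edgeR adjusted p 0.0220). In each of these genes the lower mutant library had a higher CPM than the higher WT library. A promoter peak of LOC_Os12g28020, centred at -1017 bp from the start, had a log2 fold change of 0.92 that was not called (edgeR adjusted p 0.0832).

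ABCG51 (LOC_Os10g13830) belongs by symbol to the G subfamily of ATP-binding cassette transporters, which export lipids, hormones and defence compounds. Its peak measured 2.67 and 4.03 CPM in WT and 7.16 and 7.58 CPM in Oshmgb1, a log2 fold change of 1.12 ± 0.26 (SE) with an edgeR adjusted p of 0.0218. BAM1 (LOC_Os05g51740) is described as the leucine-rich repeat receptor kinase BAM3, one of a group that in Arabidopsis binds CLE peptides. Its peak, centred 1439 bp inside the gene, rose from 5.19 and 7.58 CPM to 12.6 and 12.6 CPM (0.97 ± 0.23 SE, edgeR adjusted p 0.0269). The gene had a second first exon peak, 542 bp from the start, with a log2 fold change of 0.26 (edgeR adjusted p 0.690), and a 5′ UTR peak with 0.24 (edgeR adjusted p 0.741). LOC_Os08g28790 is described as dirigent protein 21, of a family that steers the coupling of phenolic radicals into lignans and lignin. Its single-exon peak measured 5.61 and 3.67 CPM in WT and 9.64 and 9.10 CPM in Oshmgb1 (1.03 ± 0.25 SE, edgeR adjusted p 0.0284).

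The last 3 genes with a gain had no informative description. LOC_Os05g44640 rose from 7.01 and 5.62 CPM to 13.6 and 14.3 CPM (1.15, edgeR adjusted p 0.00221). LOC_Os12g01955 rose from 7.72 and 7.33 CPM to 14.0 and 16.1 CPM (0.998, edgeR adjusted p 0.0112) at a peak 1199 bp inside its single exon, beside a promoter peak with a log2 fold change of 0.04. LOC_Os02g34150 rose from 4.35 and 4.03 CPM to 7.45 and 10.1 CPM (1.06, edgeR adjusted p 0.0251). In none of the 3 did the genotypes overlap. None of these 9 peaks passed the threshold with DESeq2 or in every fit with a library left out. ABCG51, BAM1, LOC_Os08g28790 and LOC_Os02g34150 were called in 1 of the 4 such fits, LOC_Os11g18010 and LOC_Os12g28020 in 2, and LOC_Os09g24620, LOC_Os05g44640 and LOC_Os12g01955 in 3.

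Accessibility fell at 3 first exon peaks, none of which was called in all 4 fits with a library left out. BBE1 (LOC_Os08g06170) is described as a reticuline oxidase and belongs by symbol to the berberine bridge enzyme-like flavin oxidases, which oxidise alkaloids, monolignols or oligosaccharides. Its peak, 1347 bp wide in a gene model of 1693 bp, measured 47.0 and 48.3 CPM in WT and 31.5 and 36.2 CPM in Oshmgb1 (-0.50 ± 0.13 SE, edgeR adjusted p 0.0493). It was the most accessible of the 16 called peaks, and it was called in 0 of the 4 fits with a library left out. LOC_Os10g34083, a single-exon gene with no description, measured 15.2 and 15.6 CPM in WT and 7.64 and 8.86 CPM in Oshmgb1 (-0.91 ± 0.22 SE, edgeR adjusted p 0.0241). LOC_Os10g40790, an expressed protein of 9 exons, measured 8.84 and 11.1 CPM in WT and 4.58 and 5.60 CPM in Oshmgb1 (-0.98 ± 0.24 SE, edgeR adjusted p 0.0308). At both, the higher mutant library lay below the lower WT library. LOC_Os10g34083 was called in 2 and LOC_Os10g40790 in 1 of the 4 fits with a library left out.

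Low accessibility was common among the 16 called peaks, as it was among the calls over all listed peaks. The 13 that rose had a median of 9.49 CPM and 17.6 CPM per kb. When first exon peaks were split by level into 4 equal groups, 10 of the 16 lay among the 838 of the lowest level. On groups set over all listed peaks, the lowest held 10 of the 13 higher calls and 1 of the 3 lower. Over all listed peaks, that group held 87 of 148 higher and 10 of 38 lower calls. Of the 16, 8 covered the gene start, 6 were in single-exon models and 11 were at genes with no symbol. Among all first exon peaks these shares were 51.5%, 42.1% and 46.3%. Chromosome 5 held 4 of the 16, and chromosomes 10 and 12 held 3 each. On chromosomes 5, 10 and 12 these were 1.57%, 1.32% and 1.27% of the first exon peaks. Of all listed peaks on the same chromosomes, 0.688%, 0.889% and 0.7497% were called, against 0.403% over all chromosomes. The fitted difference was at least 2-fold at 11 of the 16 called peaks. At 10 of the genes a further 13 peaks were listed, of which 9 had the same sign of log2 fold change and 1, beside TY3B-I, was called.

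Just outside the threshold, peaks of both directions had edgeR adjusted p close to 0.05. LRK10 (LOC_Os01g02790, a receptor-like kinase by symbol) measured 22.5 and 23.5 CPM in WT and 14.5 and 13.8 CPM in Oshmgb1 (-0.70, edgeR adjusted p 0.0533). LOC_Os12g32520 (0.73, edgeR adjusted p 0.0539), the glycine-rich protein gene LOC_Os10g31540 (0.76, 0.0547 with edgeR) and the retrotransposon gene RE1 (LOC_Os05g16370, 0.86, 0.0554 with edgeR) had positive values. LOC_Os11g01660 (-0.93, edgeR adjusted p 0.0554) and SARED1 (LOC_Os03g23980, described as a sanguinarine reductase, -0.64, edgeR adjusted p 0.0694) had negative ones. Their genotypes did not overlap either, which on its own was common. Both Oshmgb1 libraries stood above both WT libraries at 852 first exon peaks (25.4%, against 21.6% of all peaks) and below them at 637 (19.0%, against 21.6%).

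Small differences were more often positive in first exons than over all peaks. The median log2 fold change was 0.03 over first exon peaks and -0.01 over all listed peaks, with 0.02 over later exon, -0.05 over 5′ UTR and -0.04 over promoter peaks. An unadjusted p under 0.05 was reached by 316 first exon peaks with a higher value in Oshmgb1 (9.44%, against 6.94% of all peaks) and by 167 with a lower value (4.99%, against 5.22%). Counts scaled to the library totals behind the deposited RPKM moved the first exon median to -0.02 and that of all peaks to -0.05, so the sign of the median rests on the scaling. The 95% interval of the log2 fold change excluded a 2-fold difference for 3150 first exon peaks (94.1%, against 95.2% of all peaks). Reads in first exon peaks made up 6.49% and 6.64% of peak reads in WT (6.56% ± 0.101, SD, n = 2) and 6.72% and 6.68% in Oshmgb1 (6.70% ± 0.0287, SD, n = 2). The difference of 0.132 percentage points had an exact two-sided permutation p of 0.333, the smallest that 2 libraries against 2 allow. It was 0.0606 points without WT replicate 1 and 0.204 without WT replicate 2, and it turned to -0.0426 when the library totals behind the RPKM were the denominator.

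The genotype difference moved with the level of the peak. Split by CPM per kb into 4 equal groups, first exon peaks had median log2 fold changes of 0.16, 0.05, 0.02 and -0.03 from the least to the most accessible. Peaks higher in Oshmgb1 at an unadjusted p under 0.05 numbered 177, 75, 42 and 22 in these groups, and lower ones 44, 34, 39 and 50. When the 4 groups were set on all listed peaks, first exon medians were 0.11, 0.03, -0.00 and -0.07, and those of all peaks 0.11, 0.02, -0.02 and -0.06. On that common split, 16.7%, 6.05%, 3.8% and 1.48% of first exon peaks were higher at an unadjusted p under 0.05 with edgeR. The shares of all peaks were 16.3%, 6.25%, 3.67% and 1.58%. Lower ones made up 4.98%, 3.85%, 4.61% and 8.9% of first exon peaks, against 4.86%, 4.28%, 4.61% and 7.12% of all peaks. First exon peaks thus had nearly the same median and share of higher peaks as all peaks of like level. Of the first exon peaks, 40.8% fell in the least accessible of the 4 groups. The Spearman correlation of level and log2 fold change was -0.216 across first exon peaks and -0.230 across all peaks. Level and fold change are computed from the same 4 libraries, and depth differs between them, so the part of depth in this relation was not tested.

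**Figure D4:**
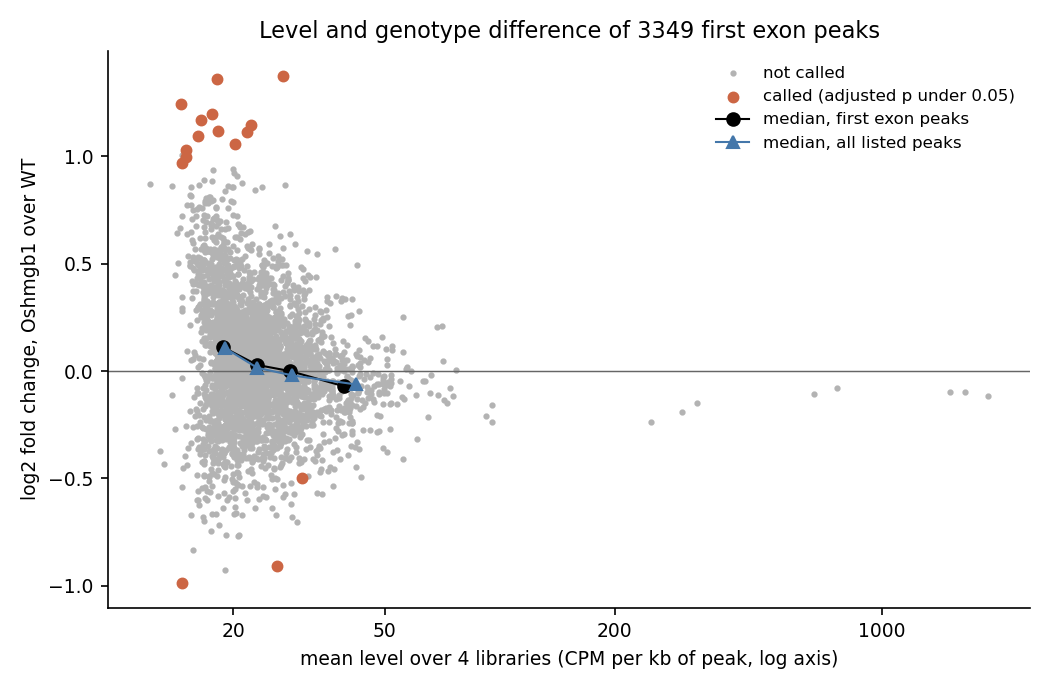
Log2 fold change of Oshmgb1 over WT against the mean level over 4 libraries in CPM per kb of peak (log axis) for 3349 first exon peaks. Orange points are the 16 called peaks. Black circles are the medians of first exon peaks and blue triangles those of all listed peaks, in 4 groups by level. The groups are equal in size over all listed peaks but not over first exon peaks. The 2 lines run from 0.11 down to -0.07 (first exon peaks) and -0.06 (all listed peaks). The 8 points at the right are the peaks above 200 CPM per kb, all below 0.

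Position in the gene went with smaller differences than level did. The median log2 fold change was 0.01 over peaks that cover the gene start and 0.05 over those clear of it, and 0.03 over both single-exon and several-exon models. By distance of the centre, it was 0.03 within 100 bp, 0.04 for the 585 peaks more than 1000 bp and at most 2 kb away and 0.01 for the 164 farther ones. By chromosome, the median ran from 0.00 on chromosome 1 to 0.06 on chromosome 5, where 4 of 254 first exon peaks (1.57%) and 0.688% of all listed peaks were called. On chromosome 12, 34 of 237 (14.3%) had an unadjusted p under 0.05 with a higher value and 7 (2.95%) with a lower one, against 10.6% and 3.86% of all listed peaks there. On chromosome 11 the numbers were 20 (6.99%) and 23 (8.04%) of 286, against 8.22% and 4.95%. Over all chromosomes the shares of all peaks were 6.94% and 5.22%. A further 2 first exon peaks lay on the unanchored sequence Sy.

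A few large gene families supplied many of the first exon peaks. Genes described as receptor kinases, disease resistance proteins or pentatricopeptide repeat (PPR) proteins held 472 of them (14.1%). PPR proteins bind organelle transcripts and guide their editing, splicing and stability, and plant PPR genes mostly lack introns. They had 189 first exon peaks at 160 genes, which was 35.9% of all their listed peaks, against 7.26% over all genes. Their centres lay at a median of 1139 bp from the gene start and 12.2% of the peaks covered it, so these peaks were mostly in the coding body, and 106 were in single-exon models. Median log2 fold change was 0.06, and 0 of 189 were called, against 0.403% of all listed peaks. At an unadjusted p under 0.05 with edgeR, 13 were higher and 8 lower, against 6.94% and 5.22% of all listed peaks. The lowest p among the PPR peaks was that of LOC_Os06g13950, described as a mitochondrial PPR protein. It had 11.2 and 12.9 CPM in WT and 19.1 and 18.7 CPM in Oshmgb1 (0.64, edgeR adjusted p 0.124).

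Receptor kinases, which carry signals from the cell surface, had 186 first exon peaks at 158 genes, or 17.7% of their listed peaks. The median log2 fold change was 0.00, BAM1 was the single peak called, and 19 were higher and 13 lower at an unadjusted p under 0.05. Disease resistance genes, mostly intracellular receptors of the NBS-LRR type, had 97 first exon peaks, 18.2% of their total. They had a median of -0.00 with 0 called by edgeR, and 6 were higher and 11 lower at an unadjusted p under 0.05. Over all listed peaks, 0.403% were called, 6.94% were higher and 5.22% lower, so 0 or 1 call in lists of this size says little. The lowest p among disease resistance genes was that of RGA2 (LOC_Os07g33730). It had 19.6 and 23.3 CPM in WT and 15.5 and 13.4 CPM in Oshmgb1 (-0.57, edgeR adjusted p 0.153). Members of these families resemble each other in sequence, and their values carry the same uncertainty about reads with several matches.

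Enzyme and cell wall lists had few calls. Of 23 first exon peaks at cell wall genes, 1 was called (4.35%), the extensin above. The share called was 0.403% of all listed peaks and 0.417% of cell wall peaks of any class. At an unadjusted p under 0.05, 5 (21.7%) of the 23 were higher and 0 lower. The shares were 6.94% and 5.22% of all listed peaks, and 8.75% and 3.33% of cell wall peaks of any class. The median log2 fold change of the 23 was 0.08. Cytochrome P450 genes, whose products oxidise hormones and secondary compounds, had 26 peaks with 0 called by edgeR and a median of 0.04. Of these, 5 (19.2%) were higher and 0 lower at an unadjusted p under 0.05. The shares were 9.91% and 4.50% of cytochrome P450 peaks of any class, and 9.44% and 4.99% of all first exon peaks. CYP75B1 (LOC_Os09g08990, described as cytochrome P450 71A1) had 3.93 and 3.79 CPM in WT and 7.45 and 6.76 CPM in Oshmgb1 (0.88, edgeR adjusted p 0.0952). Glycosyltransferases, which attach sugars to hormones and flavonoids, had 39 peaks with 0 called, 4 higher and 3 lower at an unadjusted p under 0.05. UGT73C5 (LOC_Os10g09990), the one with the lowest p, measured 16.7 and 13.4 CPM in WT and 22.7 and 24.6 CPM in Oshmgb1 (0.65, edgeR adjusted p 0.0769).

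**Figure D5:**
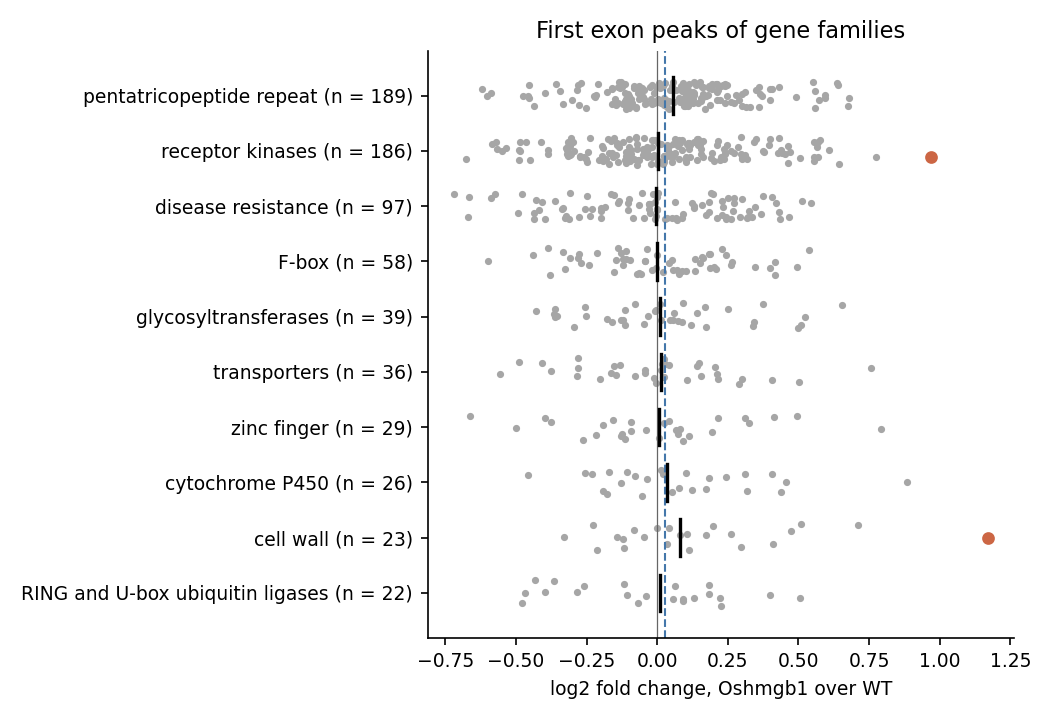
Log2 fold change of Oshmgb1 over WT for first exon peaks of the 10 gene lists with the most of them, leaving aside the 3 lists added later. Each grey point is a peak, orange points are called peaks (BAM1 among receptor kinases and the extensin gene among cell wall genes), black bars are list medians, and the dashed line is the median of all first exon peaks, 0.03.

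Leaving aside the 3 lists added later, in the other lists with at least 5 first exon peaks, 0 were called by edgeR. Since 0.403% of all listed peaks were called, 0 calls in lists this small say little about a family. At an unadjusted p under 0.05, 6.94% of all listed peaks were higher and 5.22% lower. F-box genes, whose products pick proteins for ubiquitination, had 58 peaks (4 higher and 1 lower at an unadjusted p under 0.05), and MOF (LOC_Os10g03870) had the lowest p (log2 fold change -0.60, edgeR adjusted p 0.274). Transporters had 36 peaks (2 and 4), led by the metal transporter NRAMP2 (LOC_Os03g11010), at 3.79 and 5.13 CPM in WT and 7.64 and 7.58 CPM in Oshmgb1 (0.76, edgeR adjusted p 0.164). Zinc finger genes had 29 peaks (2 and 2), with 0.79 at LOC_Os03g40710 (edgeR adjusted p 0.157). RING and U-box ubiquitin ligases had 22 (1 and 2), with 0.50 at LOC_Os03g17720 (edgeR adjusted p 0.362).

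Ribosomal protein genes, heat shock and chaperone genes and transposon-like genes had 13 first exon peaks each. At an unadjusted p under 0.05 the first 2 of these lists had 0 higher and 0 lower, and transposon-like genes had 2 higher and 1 lower. TY3B-I is not in the transposon-like list, since its description has none of the list's words. The lowest p of each was at LOC_Os06g25294 (60S ribosomal protein L18a-like, log2 fold change 0.32), MAMYB (LOC_Os04g30890, a DnaJ homologue, -0.27) and RE1 (LOC_Os10g01910, a copia-like retrotransposon, 0.62), with edgeR adjusted p of 0.483, 0.446 and 0.172. ERF094 (LOC_Os05g37640) led the 9 peaks of AP2/ERF transcription factors, which include ethylene response factors, with 5.05 and 5.25 CPM in WT and 8.59 and 8.28 CPM in Oshmgb1 (0.71, edgeR adjusted p 0.186). SCL9 (LOC_Os11g47870) led the 8 GRAS peaks (-0.31, edgeR adjusted p 0.525).

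First exons held few of the listed peaks of some transcription factor families and of phosphate genes. WRKY, bHLH, MYB and homeobox genes had 137, 124, 162 and 184 listed peaks and 1, 1, 2 and 2 of them in a first exon. These were 0.730%, 0.806%, 1.23% and 1.09% of their peaks, against 7.26% over all genes. Other families differed, with 3.67% for NAC, 5.81% for AP2/ERF, 7.14% for bZIP and 17.0% for GRAS genes. Bearing on the phosphate theme of the series, 51 peaks were listed at 28 phosphate genes and 1 of these peaks was in a first exon. It belonged to the phosphate transporter gene PHT1-4 (LOC_Os04g10800) and measured 11.4 and 11.0 CPM in WT and 11.4 and 10.1 CPM in Oshmgb1. The genotypes overlapped, with a log2 fold change of -0.05, a 95% interval of -0.48 to 0.38 and an edgeR adjusted p of 0.954. Auxin genes by description had 4 first exon peaks (2.20% of their listed peaks), cytokinin genes 3 (3.61%), gibberellin genes 1 (3.03%) and abscisic acid genes 3 (6.25%). Photosynthesis genes had 2 (2.30%) and histone genes 2 (3.33%). Among the first exon peaks of these 6 lists 0 were called by edgeR, against 0.403% of all listed peaks.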

How the data were processed

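The deposited table lists merged peaks of 4 ATAC-seq libraries, 1 per row. Raw read counts per peak, deposited by the authors as whole numbers for each library, were the values tested. The RPKM and group means of RPKM deposited by the authors served only to derive the library totals behind them, from peaks above 300 reads. Log2 fold changes deposited by the authors enter only the alternative that uses their own calls. Their deposited p-value and FDR stem from a test that the sources used here do not name. Tools named in the submitters' processing notes are ChIPseeker 1.16.1, MACS2 2.1.2, Bowtie2 2.4.4, fastp 0.23.0 and bcl2fastq 2.19. The sources used here do not give genome build, read shift, duplicate removal or organelle filtering, and coordinates are those of the table. Retained duplicates would inflate counts.

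All 46114 peaks were fitted with the quasi-likelihood test of edgeR 4.0.16 in R 4.3.3, after TMM scaling, without covariates. The default filter kept all 3349 first exon peaks, and p-values were adjusted by Benjamini-Hochberg over all peaks. DESeq2 1.42.0 was the alternative test. SE and intervals come from the fold change and its F statistic. CPM are TMM-scaled, and CPM per kb divide by peak width. Over first exon peaks, the chi-square per degree of freedom between libraries was 2.56 in WT and 2.19 in Oshmgb1, above counting noise. Figures were drawn with matplotlib 3.10.9.

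Named peaks are every called one, the 6 highest levels, the 3 nearest misses in each direction, phosphate genes, and the lowest p of each list of at least 5 first exon peaks, with other peaks of the called genes. The members, the 37 lists (words in the descriptions, or identifiers from background knowledge) and 3 added ones were chosen with earlier results of these data known. Peaks above 200 CPM per kb were set apart after their values were seen. Symbols and descriptions are those of the table, and some are borrowed from other species.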

Additional observations from a re-analysis of the deposited data

How the results depend on the processing

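The 13 higher and 3 lower calls became 4 and 0 with DESeq2 and in the authors' deposited FDR, and 5 to 46 and 0 to 20 with single libraries left out. Library totals behind the RPKM gave 7 lower calls, and 0 of the 3 lower peaks differed at least 2-fold. The largest counts came without WT replicate 2, where 12 of the 16 called peaks were shared. Without WT replicate 1, 9 were shared, without Oshmgb1 replicate 1, 10, and without Oshmgb1 replicate 2, 5; a lone library is assumed to vary like the others. With a replicate block, 14 were higher and 2 lower, 15 of them shared, LOC_Os10g31540 was gained and BBE1 was lost (edgeR adjusted p 0.0616). Replicate 1's deviations correlated at -0.036 between genotypes over all peaks. This value alone cannot decide whether libraries of equal number shared growth or preparation. The median log2 fold change of 0.028 became 0.047 with library totals alone, -0.016 with the totals behind the RPKM, and 0.015 to 0.047 with a library left out. The share of reads, 0.132 points higher in Oshmgb1, ran from 0.0606 to 0.204 with a library left out and reversed to -0.0426 over the totals behind the RPKM, and the level against later exon peaks, -0.056, to 0.0898 per peak. The cause of each change was not tested, beyond what each setting alters. No filter and DESeq2 size factors kept the 16 calls. Leaving out peaks above 200 CPM per kb, chosen after seeing the data, changed no count of calls. Of the values of named peaks over all settings, 574 kept direction and side of the threshold, 56 lost the call and 17 gained one. The other 3, none called, changed sign near 0: ATP6 (LOC_Os01g58010) without WT replicate 1, NUDT21 without WT replicate 2 and PHT1-4 without Oshmgb1 replicate 2. Some called peaks held as few as 16 reads in a library, which limits their precision.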

Other observations

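First exon peaks at genes described as chloroplast-targeted were grouped after values were seen. They numbered 119 at 111 genes, with a median level of 27.6 CPM per kb against 22.4 over all first exon peaks. Among them 0 were called by edgeR, against 0.403% of all listed peaks. At an unadjusted p under 0.05, 5 were higher and 9 lower, against 6.94% and 5.22% of all listed peaks. The highest levels were at NUDT21 (LOC_Os02g50130, a nudix hydrolase) with 62.9 CPM per kb, CP12-1 (LOC_Os01g19740, a regulator of the Calvin cycle) with 60.5, PAO (LOC_Os03g05310, pheophorbide a oxygenase, which opens the chlorophyll ring during breakdown) with 56.1 and LHBC (LOC_Os07g37550, a chlorophyll-binding protein of light-harvesting complex II) with 55.7. The peak of CP12-1 was 1952 bp wide in a gene model of 741 bp, and it measured 123 and 122 CPM in WT and 113 and 114 CPM in Oshmgb1. LHBC measured 52.0 and 53.6 CPM in WT and 41.4 and 38.1 CPM in Oshmgb1, and missed the threshold although the genotypes did not overlap (log2 fold change -0.41 ± 0.12 SE, edgeR adjusted p 0.107). The gene for phytoene desaturase (LOC_Os07g43370), an enzyme of carotenoid synthesis, had its peak 1444 bp inside its single exon at 51.9 CPM per kb.

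First exon peaks at genes described as mitochondrial numbered 82 with a median of 25.2 CPM per kb. Among them 0 were called by edgeR, against 0.403% of all listed peaks. At an unadjusted p under 0.05 with edgeR, 4 were higher and 4 lower, against 6.94% and 5.22% of all listed peaks. Genes with no description, or described as uncharacterized, hypothetical or expressed proteins, had 483 first exon peaks. Of these, 5 were called higher and 2 lower (1.45%). The share called was 0.403% of all listed peaks and 0.668% of the 5691 peaks of any class at such genes. The median log2 fold change of the 483 peaks was 0.06, and 68.3% of them covered the gene start.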
